A study of Mus musculus with 18 samples.

Results

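The genes described here were grouped as general macrophage identity genes, although some are also made by other cells or are best known from some macrophages only. They are *Adgre1*, *Cd14*, *Cd68*, *Lyz1*, *Lyz2*, *Cbr2* and *Folr2*. They were picked by name and by no threshold on their values, and all 7 were found by symbol among the 20298 genes of the expression table. The question put to them was how they behave when monocytes differentiate with and without STAT5 tetramers.

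Monocytes were enriched from C57BL/6 WT mice and from DKI mice of the same strain, in which knock-in changes to the N-domain of both STAT5 proteins (*Stat5a* and *Stat5b*) leave dimers intact but prevent tetramers. RNA was sequenced from untreated Ly6C+ CCR2+ monocytes (day 0) and from monocyte-derived cells (MDCs) cultured in 20 ng/mL GM-CSF, a cytokine that signals through STAT5, until day 3 or day 6. Each of the 6 groups held 3 libraries, numbered 1 to 3. The mutation was present in the whole animal, and no age is given for the mice of these libraries. The series text and the methods name bone marrow as the source, whereas the sample labels say liver. Of 6 hepatocyte markers, *Alb* and *Ttr* were listed at 0 in all 18 libraries, *Apoa1*, *Apob* and *Fgb* did not exceed 0.0470 RPKM, and *Trf*, which encodes transferrin, had 34.3 to 779 RPKM. The knock-in alters the proteins, so RPKM values cannot check the genotype labels. On day 3 *Stat5a* had 30.2, 58.0 and 39.7 RPKM in WT and 9.37, 13.4 and 14.4 RPKM in DKI MDCs. *Stat5b* had 17.1, 25.2 and 22.8 RPKM in WT and 14.8, 12.6 and 16.5 RPKM in DKI MDCs of that day. On day 6 both genes were again lower in all DKI than in all WT libraries. These differences, and their part in those of the members, were not tested.

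Monocytes leave the bone marrow and take on macrophage or dendritic cell features depending on the cytokines they meet. A macrophage is built for uptake and digestion. *Cd14* and *Adgre1* sit on the cell surface, *Cd68* lines endosomes and lysosomes, and *Lyz1* and *Lyz2* encode the lysozyme that cuts bacterial cell walls. *Cbr2* encodes a carbonyl reductase and *Folr2* a folate receptor, and both are best known from resident macrophages of tissues.

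Values are RPKM (reads scaled by gene length and by the mapped reads of the library), which are per length and so can be set side by side between genes. Read totals were not used here, and depth was estimated from the lowest values at 29.2 to 43.1 M reads per library. For a 1 kb gene, 3 reads in the shallowest library come to 0.103 RPKM, a floor that covers counting error only. Across genes, log2(RPKM + 1) correlated at 0.963 to 0.989 between libraries of a group. Groups were compared with limma on log2(RPKM + 1), a scale that understates changes where RPKM is low. A gene entered a comparison when its mean exceeded 2 RPKM in one of the groups. It was called at a Benjamini-Hochberg adjusted p under 0.05 over all genes and a change above 1.5-fold. The library names of replicate 1 on days 3 and 6 carry an earlier year than the others, so results are also given for replicates 2 and 3 alone where this matters.

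Before GM-CSF, none of the 6 members tested was called between WT and DKI monocytes (*Folr2* was too low to be tested). After 3 days, 4 of the 7 (*Cd68*, *Lyz1*, *Lyz2* and *Cbr2*) were called higher in DKI than in WT MDCs, where 3.21% of all 9740 genes were called higher. On day 6 the same 4 genes and *Folr2* were called higher, 5 of 7, where 2.72% of 9842 genes were. *Cbr2* and *Folr2* passed the filter on low values in these comparisons only through the DKI group, where they are high, so they had to differ to be tested. Without the filter the day 6 call of *Folr2* was lost (adjusted p = 0.0657) and *Cbr2* was called on both days (0.0192 and 0.0339). No member was called lower in DKI cells on any day, whereas 4.21% of all genes were on day 3 and 4.82% on day 6. *Adgre1* and *Cd14* had higher means in DKI MDCs on both days but did not pass the test. The median log2 fold change of all genes was −0.11 on day 3 and −0.17 on day 6, against which these differences should be read.

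As markers the genes were not alike in these cells. *Adgre1* was lowest in the monocytes, while *Cd14* was highest there and *Lyz2* had the highest RPKM of all genes in every monocyte library.

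Values without overlap were more frequent than calls. On day 3 every DKI library exceeded every WT library for all 7 genes, which held for 13.4% of all genes. On day 6 this was so for 6 of the 7, *Cd14* being the exception, and for 10.6% of all genes. On day 0 the WT and DKI values overlapped for all 6 members tested (1.03% of 9179 genes did not overlap), and limma called 0 genes in the whole table at that time (0%), with 44 genes under an unadjusted p of 0.05. The members' own unadjusted p on day 0 ranged from 0.446 to 0.995.

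**Figure D1:**
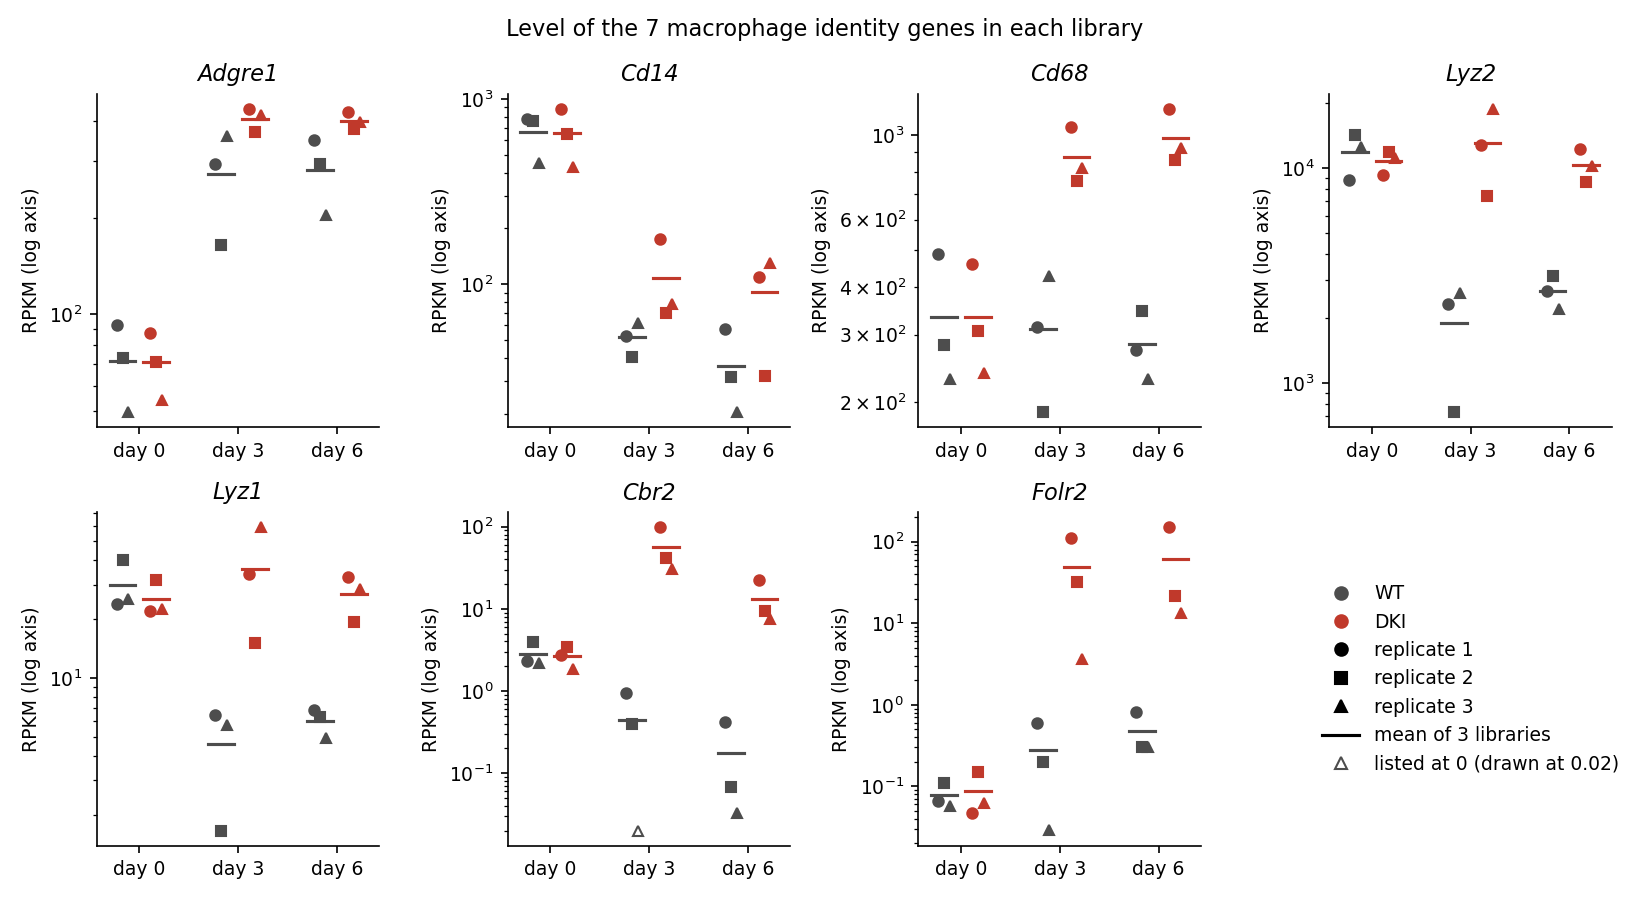
RPKM of each gene in each of the 18 libraries, with a separate log axis for every gene, WT in grey and DKI in red, symbols for the replicate number and bars for the mean of 3 libraries. The red points lie above all grey points in every panel on day 3, and the genotypes overlap on day 0.

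*Adgre1* encodes F4/80, an adhesion G protein-coupled receptor that is the classical mouse macrophage antigen. It was at 92.6, 73.1 and 49.6 RPKM in the WT monocytes and at 87.7, 71.1 and 54.2 RPKM in the DKI monocytes. After 3 days the WT MDCs had 294, 165 and 360 RPKM and the DKI MDCs 438, 369 and 417 RPKM. The day 6 libraries had 349, 293 and 205 RPKM in WT and 429, 378 and 397 RPKM in DKI. All MDC libraries thus lay above all monocyte libraries, and the DKI MDCs lay close together while the WT MDCs were spread 2.18-fold on day 3.

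From day 0 to day 3, *Adgre1* rose in WT cells by 1.88 on the log2 scale (standard error 0.34, adjusted p = 0.00446 from limma) and in DKI cells by 2.53 (standard error 0.23, adjusted p = 0.00115). The DKI to WT difference among MDCs was 0.65 on day 3 (95% interval −0.12 to 1.41, adjusted p = 0.257) and 0.54 on day 6 (−0.04 to 1.11, adjusted p = 0.197). In ratios of means this is 1.49-fold and 1.42-fold, the smallest among the 7 genes. Ordered by mean, both monocyte groups came lowest, then the WT and then the DKI MDCs, and within each of these 3 steps the values overlapped.

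*Cd14* encodes the receptor that hands lipopolysaccharide to TLR4 and MD-2, and it is high in classical monocytes. The WT monocytes had 775, 760 and 449 RPKM and the DKI monocytes 885, 647 and 430 RPKM. On day 3 the WT MDCs were at 52.6, 40.3 and 61.6 RPKM and the DKI MDCs at 176, 69.4 and 78.5 RPKM. On day 6 the values were 56.9, 31.4 and 20.4 RPKM in WT and 109, 32.0 and 130 RPKM in DKI. *Cd14* was therefore the one member whose MDC levels stayed below the monocyte levels in every library of both genotypes.

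Its fall from day 0 to day 3 was 3.64 on the log2 scale in WT (standard error 0.27, adjusted p = 1.6e-04, limma) and 2.65 in DKI cells (standard error 0.43, adjusted p = 0.00628). The genotypes differed by 0.95 on day 3 (95% interval 0.04 to 1.85, adjusted p = 0.175) and by 1.19 on day 6 (−0.26 to 2.64, adjusted p = 0.246), so that no difference was called. The DKI MDCs spread 4.08-fold on day 6, and DKI replicate 2 lay within the WT range. In the same cells the ratio of *Cd14* to *Adgre1* dropped from between 7.93 and 10.4 in the monocytes to between 0.0845 and 0.402 in the MDCs, and it overlapped between genotypes on each day.

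*Cd68* encodes a heavily glycosylated protein of late endosomes and lysosomes. In WT cells its values overlapped between all 3 days. The WT monocytes had 488, 282 and 229 RPKM and the DKI monocytes 460, 306 and 238 RPKM. The WT MDCs had 314, 188 and 427 RPKM on day 3 and 274, 347 and 229 RPKM on day 6. The DKI MDCs had 1050, 758 and 818 RPKM on day 3 and 1171, 858 and 922 RPKM on day 6. The lowest DKI MDC library thus exceeded every one of the other groups' 12 libraries.

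*Cd68* differed between DKI and WT MDCs by 1.56 on the log2 scale on day 3 (standard error 0.34, adjusted p = 0.0475, limma) and 1.80 on day 6 (standard error 0.24, adjusted p = 0.0162). With the replicate number as a block the adjusted p was 0.0622 on day 3, which ends the call, and 0.0340 on day 6. Median centring also ended the day 3 call (adjusted p = 0.0531). Over time, *Cd68* rose in DKI cells by 1.42 (standard error 0.30, adjusted p = 0.0140) from day 0 to day 3. In WT cells the difference was −0.11 (95% interval −1.01 to 0.79, adjusted p = 0.834).

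Since *Adgre1* and *Cd68* come from the same libraries, their ratio does not depend on how a library was scaled. *Cd68* was at 4.58 ± 0.709 times the level of *Adgre1* in WT and 4.65 ± 0.517 times in DKI monocytes (SD, n = 3). In the MDCs of day 3 the ratio was 1.13 ± 0.0581 in WT and 2.14 ± 0.230 in DKI. The day 6 ratios were 1.03 ± 0.214 and 2.44 ± 0.254. The genotypes overlapped on day 0 and did not overlap on days 3 and 6 (exact two-sided permutation test, p = 0.1, the smallest that 3 against 3 libraries allow, and 0.3 when adjusted over the 12 ratio tests made).

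**Figure D2:**
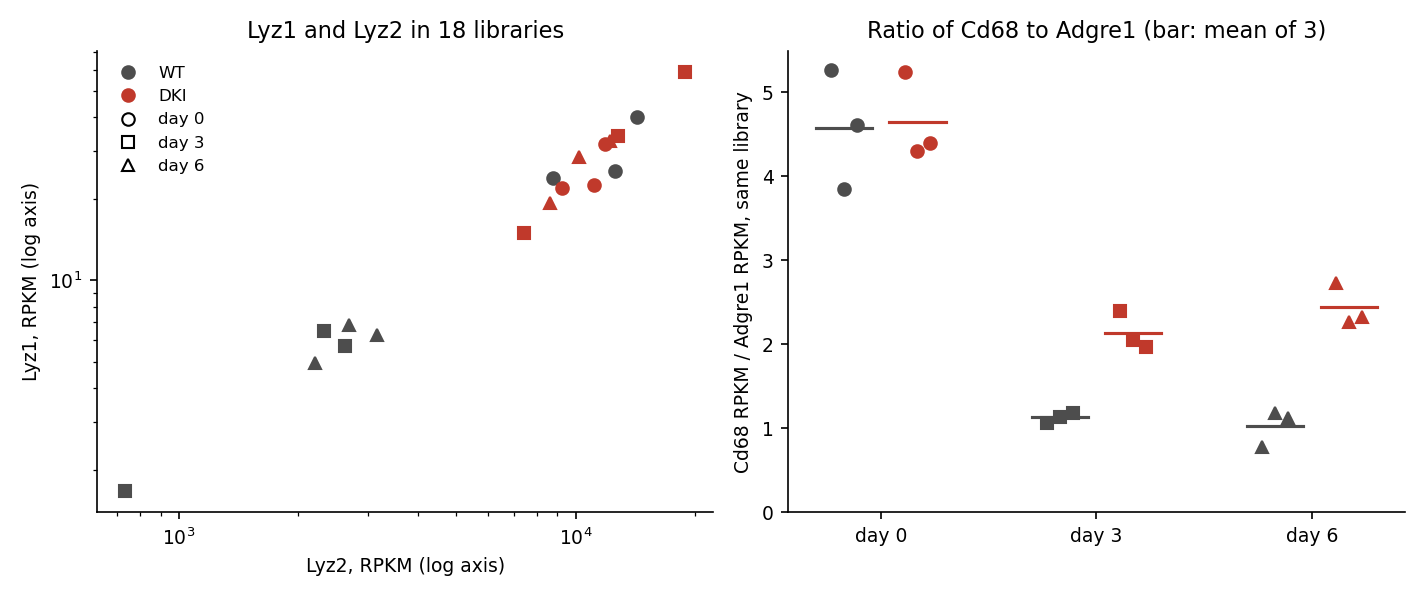
Left, RPKM of *Lyz1* against RPKM of *Lyz2* in the 18 libraries on log axes, where the points form a single line. Right, RPKM of *Cd68* divided by RPKM of *Adgre1* in the same library, with bars for the mean of 3 libraries, where DKI MDCs lie between 1.96 and 2.73 and WT MDCs between 0.784 and 1.18.

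*Lyz2* encodes lysozyme M, the form made by monocytes, macrophages and neutrophils. It was the gene with the highest RPKM in all 6 monocyte libraries. These were 8768, 14266 and 12573 RPKM for WT and 9250, 11859 and 11121 RPKM for DKI monocytes. The WT MDCs had 2321, 732 and 2630 RPKM on day 3 and 2681, 3160 and 2201 RPKM on day 6. The DKI MDCs had 12766, 7417 and 18907 RPKM on day 3 and 12236, 8638 and 10214 RPKM on day 6, overlapping the monocyte values.

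*Lyz2* thus kept rank 1 or 2 in every DKI MDC library, while it ranked between 11 and 57 in the WT MDCs. At most it made up 4.44% of the summed RPKM of a library, in a DKI library of day 3. The fall from day 0 to day 3 in WT cells was 2.82 on the log2 scale (standard error 0.50, adjusted p = 0.00420, limma). In DKI cells the difference was 0.18 (95% interval −0.87 to 1.24, adjusted p = 0.765). DKI against WT MDCs differed by 2.88 on day 3 (standard error 0.63, adjusted p = 0.0468) and by 1.95 on day 6 (standard error 0.28, adjusted p = 0.0197), in ratios of means 6.88-fold and 3.87-fold. Without the filter on low values, these *Lyz2* calls were lost on day 3 (adjusted p = 0.424) and day 6 (0.456), as was its fall in WT cells (0.0993). The log2 differences stayed the same in these fits, while their standard errors rose to 1.77, 1.33 and 1.09. The reason for this rise was not tested.

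*Lyz1* encodes lysozyme P, known from the Paneth cells of the gut. It followed *Lyz2* at a far lower level. The WT monocytes had 23.9, 40.1 and 25.4 RPKM and the DKI monocytes 21.9, 31.9 and 22.6 RPKM. For day 3 the values were 6.48, 1.66 and 5.73 RPKM (WT) and 34.1, 15.0 and 59.0 RPKM (DKI), and for day 6 they were 6.82, 6.28 and 4.93 RPKM (WT) and 32.8, 19.4 and 28.5 RPKM (DKI). As with *Lyz2*, the WT MDCs were lower than all other libraries. The genotypes differed by 2.66 on the log2 scale (standard error 0.58, adjusted p = 0.0468) on day 3 and 1.97 (standard error 0.23, adjusted p = 0.0109) on day 6. The *Lyz1* call of day 3 was lost without the filter on low values (adjusted p = 0.0948) and with replicates 2 and 3 alone (0.132). Its day 6 call was kept without the filter (0.0310) and lost with replicates 2 and 3 alone (0.101). WT cells lost 2.55 from day 0 to day 3 (adjusted p = 0.00294), and in DKI cells the difference was 0.31 (95% interval −0.80 to 1.42).

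The 2 lysozyme genes are neighbours on the minus strand of chromosome 10 (mm10), *Lyz2* from 117277541 to 117282272 and *Lyz1* from 117287795 to 117292868. Their coding sequences of 444 bases, spread over 4 exons each, differ at 22 positions (95% identity). The first 180 coding bases, from the start codon on, are shown for both, read from the mouse genome with the GENCODE M21 annotation. Capitals mark the 15 positions in this stretch where the copies differ and by which a read can be told to come from one of them.
Lyz1: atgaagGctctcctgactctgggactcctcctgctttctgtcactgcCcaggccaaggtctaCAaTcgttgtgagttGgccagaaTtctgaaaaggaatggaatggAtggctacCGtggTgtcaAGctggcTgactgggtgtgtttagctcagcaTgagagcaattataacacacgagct
Lyz2: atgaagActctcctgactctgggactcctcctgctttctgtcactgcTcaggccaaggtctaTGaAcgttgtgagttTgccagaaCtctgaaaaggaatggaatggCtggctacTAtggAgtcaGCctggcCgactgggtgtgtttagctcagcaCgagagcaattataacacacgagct

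The longest identical run of the coding sequences is 118 bases. Of the 36-base windows of the *Lyz1* transcript, 28.5% occur unchanged in *Lyz2*, and of the 50-base windows 16.1%. Over the 18 libraries *Lyz1* varied 35.5-fold and *Lyz2* 25.8-fold, yet *Lyz1* was always between 0.199% and 0.312% of *Lyz2*, a range of 1.57-fold that overlapped between genotypes on each day. How reads that fit both copies were counted is not stated in the sources used here, so the RPKM of *Lyz1* is uncertain, and the part of shared reads in it was not tested.

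The likeness of the copies extends upstream. The 100 bases before the RefSeq start are shown for *Lyz1* (GRCm38, chr10:117292869-117292968, minus strand) and *Lyz2* (chr10:117282273-117282372, minus strand), since the copies lie side by side. Capitals mark the 8 positions that differ (92% identity).
Lyz1: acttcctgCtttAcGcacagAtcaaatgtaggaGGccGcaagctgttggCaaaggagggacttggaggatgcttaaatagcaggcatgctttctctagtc
Lyz2: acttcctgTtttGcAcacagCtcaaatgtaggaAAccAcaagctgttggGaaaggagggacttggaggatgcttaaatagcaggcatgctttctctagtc

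RefSeq promoters, from 250 bases before to 50 after a start, were at hand for 5 members in 6 windows. The consensus STAT5 motif TTCNNNGAA, which reads the same on both strands, occurred in 0 of the 6 windows and in 8.3% of 32851 mouse promoters of that length. So few windows cannot be told apart from that share. The letters GAGGAA, the core that PU.1 and its relatives bind, occurred on one of the strands in 2 of the 6 windows (*Cd68* and *Cbr2*) and in 28.3% of all promoters. *Adgre1* and *Cd14* have no entry in the promoter table. According to the paper, tetramers can bind suitably spaced sites of lower affinity that depart from the consensus. Such sites and more distant ones were not searched, so the windows do not show whether tetramers bind these genes.

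*Cbr2* encodes a carbonyl reductase of mitochondria. It was low in all monocytes, with 2.31, 3.96 and 2.20 RPKM in WT and 2.75, 3.38 and 1.86 RPKM in DKI. It then moved in opposite directions in the genotypes. On day 3 the WT MDCs had 0.944 and 0.390 RPKM and replicate 3 was listed at 0, whereas the DKI MDCs had 98.6, 41.0 and 30.2 RPKM. On day 6 the values were 0.420, 0.0684 and 0.0323 RPKM in WT and 22.3, 9.29 and 7.44 RPKM in DKI.

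*Cbr2* fell in WT cells by 1.43 on the log2 scale from day 0 to day 3 (standard error 0.32, adjusted p = 0.00990, limma) and rose in DKI cells by 3.81 (standard error 0.43, adjusted p = 0.00226). DKI against WT MDCs differed by 5.19 on day 3 (standard error 0.47, adjusted p = 0.00555) and by 3.44 on day 6 (standard error 0.40, adjusted p = 0.0109). With a pseudocount of 0.1 these differences were 7.06 and 5.69, and the fall in WT cells was 2.92, all still called. *Cbr2* was the only member called on both days with replicates 2 and 3 alone (adjusted p = 0.0164 and 0.0445). Several WT values lie under the 0.103 RPKM that 3 reads give, so no ratio of means is given. All DKI values of day 6 were below those of day 3, by 2.00 on the log2 scale, which was not called (unadjusted p = 0.00994, adjusted p = 0.999, limma). Such lower values without overlap were found for 3.29% of all genes.

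*Folr2* encodes folate receptor beta. It was at or near the counting floor in monocytes, at 0.0660, 0.109 and 0.0568 RPKM in WT and 0.0476, 0.150 and 0.0626 RPKM in DKI. The WT MDCs stayed under 1 RPKM, with 0.603, 0.197 and 0.0288 RPKM on day 3 and 0.820, 0.302 and 0.306 RPKM on day 6. The DKI MDCs reached 110, 31.9 and 3.68 RPKM on day 3 and 151, 21.9 and 13.3 RPKM on day 6. Among MDCs the DKI libraries did not overlap the WT libraries on either day, but they differed from each other by 29.8-fold on day 3 and 11.3-fold on day 6.

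*Folr2* differed between DKI and WT MDCs by 4.36 on the log2 scale on day 3 (standard error 1.06, adjusted p = 0.0604, limma), which is not called. Without DKI replicate 3 it was 5.59 with an adjusted p of 0.0124, and without each of the other libraries it stayed uncalled (adjusted p up to 0.170, and 3.31 without DKI replicate 1). The difference on day 6 was 4.66 (standard error 0.84, adjusted p = 0.0303), a call kept in 2 of 6 fits without one library (without DKI replicate 1 or 2) and lost in the others (adjusted p up to 0.112). From day 0 to day 3 *Folr2* rose in DKI cells by 4.57 (standard error 1.04, adjusted p = 0.0173). In same-numbered pairs the DKI library exceeded its WT partner 182-fold and 162-fold in replicates 1 and 2 of day 3, and 184-fold, 72.5-fold and 43.5-fold on day 6. The WT library of replicate 3 on day 3 is below the counting floor, so its ratio is left out.

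The replicates high in *Folr2* were also high in *Cbr2*. In both genes, replicate 1 was the highest DKI library and replicate 3 the lowest on both days. Over the 18 libraries, deviations from the group means correlated between *Cbr2* and *Folr2* at r = 0.86, between *Adgre1* and *Cd68* at r = 0.89 and between *Lyz1* and *Lyz2* at r = 0.92. Between *Folr2* and the lysozymes they correlated at −0.15 (*Lyz1*) and −0.11 (*Lyz2*), and the highest lysozyme values of day 3 came from DKI replicate 3. These are descriptions over libraries that share their replicate numbers and depth.

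**Figure D3:**
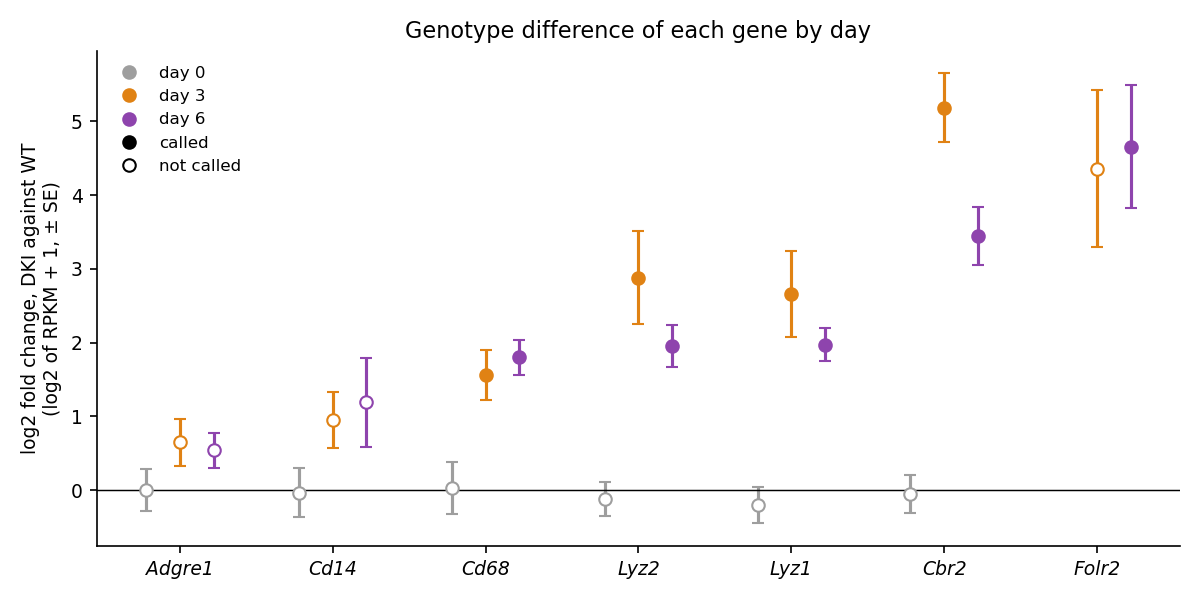
Log2 fold change of each gene in DKI against WT cells on days 0, 3 and 6, on the scale of log2(RPKM + 1), with standard errors from limma and filled points for called genes. Day 0 values lie between −0.20 and 0.03, and *Cbr2* and *Folr2* have the highest values on days 3 and 6.

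Whether the genotypes changed differently over time was tested directly as an interaction of genotype and day. From day 0 to day 3, *Lyz2* (3.00 on the log2 scale, standard error 0.70, adjusted p = 0.0478) and *Cbr2* (5.24, standard error 0.57, adjusted p = 0.00132) passed, 2 of 7 members, where 1.2% of 10212 genes passed in this direction. *Lyz1* (2.86, adjusted p = 0.0537), *Folr2* (4.35, adjusted p = 0.0829) and *Cd68* (1.53, adjusted p = 0.165) did not. From day 0 to day 6, *Lyz1* (2.17, adjusted p = 0.0105), *Lyz2* (2.07, adjusted p = 0.0118), *Cbr2* (3.50, adjusted p = 0.00540) and *Folr2* (4.64, adjusted p = 0.0266) passed, 4 of 7, where 0.898% of 10353 genes did. *Cd68* gave 1.77 (adjusted p = 0.0618). In both tests *Folr2* passed the filter on low values only through the DKI MDCs, where it is high, so it had to differ to be tested. Without the filter *Folr2* was called to day 6 (adjusted p = 0.0463) and not to day 3 (0.136).

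With the replicate number as a block on each day, an alternative chosen after seeing the data, 5 of 7 members passed in both tests, where 4.6% of all genes passed in this direction from day 0 to day 3 and 4.88% from day 0 to day 6. These added *Cd68* (adjusted p = 0.0282), *Lyz1* (0.00279) and *Folr2* (0.0386) from day 0 to day 3, and *Cd68* (0.0103) from day 0 to day 6. Between days 3 and 6 the genotype difference of no member changed by limma, where 0% of 9985 genes were called and 89 had an unadjusted p under 0.05. *Cbr2* alone among the members had an unadjusted p under 0.05 in that test (0.0245).

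Within WT cells, 1 of 6 members tested rose (*Adgre1*) and 4 fell (*Cd14*, *Lyz1*, *Lyz2* and *Cbr2*) from day 0 to day 3, where 20.3% of all genes rose and 22.8% fell. Within DKI cells, 4 of 7 rose (*Adgre1*, *Cd68*, *Cbr2* and *Folr2*) and 1 fell (*Cd14*), where 13.1% of all genes rose and 21.1% fell. *Folr2* passed the filter on low values there only through day 3, so it had to rise to be tested. It was also called without the filter (adjusted p = 0.0404). Without any one of the 3 DKI monocyte libraries, *Folr2* differed by 4.54 to 4.61 with an adjusted p between 0.0524 and 0.0553, and without DKI replicate 2 of day 0 *Cd68* differed by 1.39 with an adjusted p of 0.0573, so that these calls were lost at a like size. Without DKI replicate 1, 2 or 3 of day 3, the *Folr2* rise was 3.52, 4.39 and 5.80 and stayed called (adjusted p up to 0.0482). Between days 3 and 6 limma called no member in WT (0 of 5 tested) or DKI cells (0 of 7), and 0% of all genes in either genotype, with 722 and 93 genes under an unadjusted p of 0.05.

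The number of members called between the genotypes depended on single libraries. On day 3, between 1 and 2 members were called when one library was left out, in place of 4. *Cbr2* was called each time, *Cd68* and *Lyz2* were lost without any of the 6 libraries, and *Lyz1* was kept without DKI replicate 2 alone. On day 6 between 1 and 5 were called. Without WT replicate 3 the call left was *Lyz1*, and without DKI replicate 3 it was *Cbr2*, while *Lyz1* remained without WT replicate 1 together with *Cbr2*. With replicates 2 and 3 alone, chosen after seeing the data, 1 member was called on day 3 (*Cbr2*) and 2 on day 6 (*Cbr2* and *Folr2*). The log2 fold changes kept their direction when one library was left out, for example for *Lyz2* within 2.30 and 3.24 on day 3 and within 1.82 and 2.08 on day 6.

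Other cell types could carry some of these transcripts, and in bulk RNA fewer cells of a type and less RNA per cell cannot be told apart. The 11 dendritic cell markers summed on day 3 to between 12161 and 13555 RPKM in the WT libraries and between 728 and 2387 RPKM in the DKI libraries, and on day 6 to 8391 to 14169 and 1312 to 4051 RPKM. Of the 7 tested on day 3, 5 were called lower in DKI (4.21% of all genes), and of the 9 tested on day 6, 5 were (4.82% of all genes), while the rest of the 11 were too low to be tested. The 7 classical monocyte markers, none of them called by limma (2 under an unadjusted p of 0.05 on day 3 and 0 on day 6), summed on day 3 to between 455 and 627 RPKM (WT) and between 506 and 1678 RPKM (DKI). On day 6 they reached 10724 RPKM in DKI replicate 3, against at most 1567 RPKM in the other MDC libraries of that day. Their part in the members' differences was not tested.

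Neutrophils make *Lyz2* too, and the paper enriched the monocytes by negative selection. In the day 0 libraries the neutrophil and granulocyte precursor markers summed to 4303, 4278 and 2424 RPKM (WT) and 5127, 3029 and 2584 RPKM (DKI). The classical monocyte markers summed there to between 4184 and 5093 RPKM (WT) and between 3783 and 4501 RPKM (DKI). The 10 neutrophil and granulocyte precursor markers summed on day 3 to 190, 4497 and 302 RPKM (WT) and 1843, 2827 and 565 RPKM (DKI), where WT replicate 2 had the highest sum of that day. On day 6 the sums were 583, 599 and 38.6 RPKM in WT and 3077, 257 and 38.6 RPKM in DKI. None of the 10 markers was called between the genotypes by limma on day 3 or day 6, with 3 under an unadjusted p of 0.05 on day 3 and 0 on day 6. The part of neutrophil RNA in the *Lyz2* levels, their change with time and the genotype difference was not tested.

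Among the remaining lists, the 5 stromal markers summed to 34.2 RPKM in DKI replicate 1 of day 6 and to at most 1.32 RPKM in the other libraries of that day. On day 3 they summed to 9.79 RPKM in DKI replicate 1 and to at most 1.83 RPKM in the others. The B and plasma cell markers summed to at most 8.52 RPKM, the eosinophil markers to at most 51.7 RPKM and the T and NK cell markers to at most 9.17 RPKM in any MDC library. The erythroid markers were at 0 or within 0.0181 RPKM in MDCs. The hepatocyte sum, 779 RPKM at most, was transferrin (*Trf*) in effect, and the 4 Kupffer cell markers reached 36.5 RPKM at most. Their part in the members' differences was not tested.

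The partners and relatives of the members were followed from lists written down by function, with earlier results of these data known. Of 25 other resident and core macrophage genes tested, 10 were called higher in DKI MDCs on day 3 (3.21% of all genes) and 7 on day 6 (2.72% of all genes), and 0 were called lower on either day. The median log2 fold change of the list was 2.50 on day 3 and 2.20 on day 6. In the comparison of WT days 3 and 0, and in that of WT days 6 and 3, only 23 genes of the list were tested. Some of the 25 thus passed the filter on low values only through the DKI group, where they are high. These had to differ to be tested, and the counts and medians include them. *Apoe*, the lipid carrier apolipoprotein E, had 30.5, 3.23 and 1.94 RPKM in the WT and 7177, 440 and 1205 RPKM in the DKI libraries of day 3 (difference 7.74 on the log2 scale, standard error 1.25, adjusted p = 0.0213). *Maf*, a transcription factor of macrophages, changed by 5.28 (standard error 0.61, adjusted p = 0.00966) and *Stab1*, a scavenger receptor, by 5.33 (standard error 0.68, adjusted p = 0.0119).

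On day 6 these 3 genes differed by 7.02, 4.54 and 4.0 (adjusted p = 0.0410, 0.0252 and 0.0426). *Apoe*, *Maf* and *Stab1* were all highest in DKI replicate 1, as *Cbr2* and *Folr2* were. Leaving out one library gave 3 to 12 called genes of this list on day 3 (3 to 5 without any one WT library) and 1 to 8 on day 6 (1 without WT or DKI replicate 3, 3 without WT or DKI replicate 1), and with replicates 2 and 3 alone 9 and 2 genes were called. *Mrc1*, *Pf4*, *Stab1* and *Fcgr1* in this list were named by the study from these data and are not independent evidence. *Vsig4* and *Tlr7* were not analysed here.

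**Figure D4:**
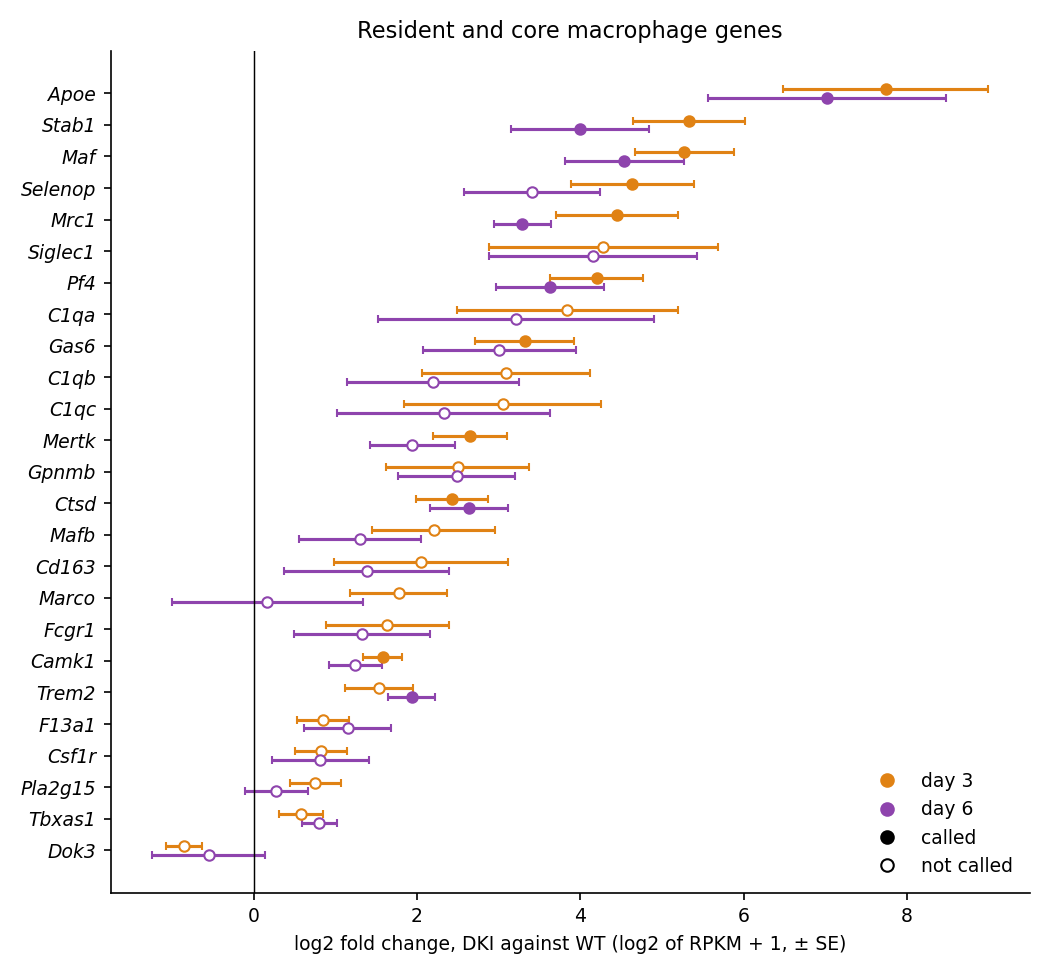
Difference between DKI and WT MDCs (log2 fold change) of the 25 resident and core macrophage genes tested, ordered by day 3, with standard errors from limma and filled points for called genes. All but *Dok3* lie above 0 on both days, and the called genes lie between 1.58 and 7.74.

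*Cd14* works with TLR4 and MD-2. *Tlr4* was not called in DKI against WT MDCs on day 3 (0.60 on the log2 scale, adjusted p = 0.241) or day 6 (0.55, adjusted p = 0.328). *Ly96*, which encodes MD-2, had 12.3, 15.0 and 11.9 RPKM (WT) and 35.9, 22.4 and 22.7 RPKM (DKI) on day 3 (0.97, standard error 0.22, adjusted p = 0.0495), and was not called on day 6 (0.39, adjusted p = 0.247). Of 13 genes of lipopolysaccharide and lipopeptide recognition tested, 4 were called higher on day 3 (*Tlr1*, *Tlr6*, *Cd180* and *Ly96*) and 3 on day 6 (without *Ly96*), and 0 lower, beside 3.21% and 2.72% of all genes called higher. The list medians were 0.95 and 0.39. *Tlr1*, a partner of TLR2, changed most, by 3.32 on day 3 (standard error 0.45, adjusted p = 0.0135) and 2.80 on day 6 (adjusted p = 0.0330). *Cd180*, a TLR-like receptor, changed by 2.26 and 2.00 (adjusted p = 0.0201 and 0.0338).

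The closest relatives of *Adgre1* were not called between the genotypes. *Adgre5*, which encodes CD97, fell from day 0 to day 3 in WT cells by 3.43 on the log2 scale (adjusted p = 5.1e-04, limma) and in DKI cells by 3.46 (adjusted p = 0.00449). Its genotype difference on day 3 was −0.08 (95% interval −1.46 to 1.31, adjusted p = 0.948). *Adgre4* had 0.966, 0.122 and 0.196 RPKM (WT) and 14.5, 1.15 and 7.90 RPKM (DKI) on day 3, a difference that was not called (2.27, adjusted p = 0.112). Among 3 lysosome membrane glycoproteins tested beside *Cd68*, *Lamp1* was called higher on both days, by 1.92 (standard error 0.36, adjusted p = 0.0308) and 1.47 (standard error 0.32, adjusted p = 0.0453), beside 3.21% and 2.72% of all genes. Its day 3 values were 251, 257 and 381 RPKM (WT) and 1646, 730 and 1120 RPKM (DKI). *Lamp2* was not analysed here.

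Of 5 carbonyl and related reductases tested, *Cbr1* was called higher on day 3 (0.99, standard error 0.15, adjusted p = 0.0180, beside 3.21% of all genes) and none on day 6, while *Cbr3* had 0.43 and 0.15 (adjusted p = 0.577 and 0.869). Of 10 folate transport and enzyme genes tested, 0 were called on either day by limma, with 2 under an unadjusted p of 0.05 on each day. *Folr1*, the neighbour of *Folr2* on chromosome 7, stayed at or below 0.565 RPKM in all libraries, while *Folr2* reached 151 RPKM. *Lyzl4* was the one other lysozyme family gene tested and was not called (1.81 on day 3, adjusted p = 0.0930).

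Among 10417 genes, those most like each member over the 18 libraries were named by Pearson's r of log2(RPKM + 1), as a description. Among the genes most like *Adgre1* were *Tex264* (r = 0.98) and *Rab34* (0.98). Among those most like *Cd14* were *Rnf2* (0.97) and *Arnt* (0.97), and *Cd68* was most like *Slc35f6* (0.94) and the cathepsin genes *Ctsb* (0.94) and *Ctsl* (0.94). Each lysozyme gene was most like the other (0.99), followed by *Vsir* and *Rnf130*. *Cbr2* was most like *Sash1* (0.95), *Tlr1* (0.94) and *Trim30c* (0.94), and *Folr2* like *Hyal1* (0.98), *Ddx60* (0.97) and *Pdgfc* (0.97).

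*Ctsl*, a lysosomal protease, had 91.0, 73.1 and 276 RPKM (WT) and 1419, 1656 and 1167 RPKM (DKI) on day 3. *Vsir*, which encodes the checkpoint receptor VISTA, had 123 ± 38.7 RPKM in WT monocytes (SD, n = 3) and, on day 3, 28.1 ± 10.2 RPKM for WT and 97.6 ± 31.8 RPKM for DKI MDCs. These genes were picked for their likeness to a member in the same libraries, so their values are a description.

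None of the members lies beside the mutated genes. *Cd68* and *Cbr2* share chromosome 11 with *Stat5a* (mm10), *Cd68* from 69664213 to 69666170, 31.2 Mb before it, and *Cbr2* from 120729485 to 120732025, 19.9 Mb after it. *Adgre1* lies on chromosome 17 from 57358581 to 57483529, *Cd14* on chromosome 18 from 36725064 to 36726815 and *Folr2* on chromosome 7 from 101839988 to 101857190.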

How the data were processed

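RNA-seq libraries were made by the authors from total RNA of 18 samples with an mRNA kit and sequenced on an Illumina HiSeq2000. Single-end reads had been aligned to mm10 with Subread and assigned to RefSeq genes with featureCounts, and the authors deposited RPKM values in 1 column per library. Versions, strand setting and the treatment of reads that match several genes are not given in the sources used here, so genes that overlap or resemble each other may share reads. Of 20298 identifiers, 20082 matched the RefSeq annotation of GRCm38.p6, from which positions were taken. No libraries held identical values. RPKM keeps no read totals. Depth was estimated from the lowest values of 933 single-exon genes. Of 1602 low values, 56.7% were whole reads within 0.05 reads (10% by chance), so whole reads were not recovered and no count test was run.

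log2(RPKM + 1) was fitted in R 4.3.3 with limma 3.58.1 (empirical Bayes with a trend) on the libraries of the groups compared, for genes with a group mean above 2 RPKM. The 10 comparisons were 3 between genotypes, 4 between days and 3 interactions. The fold and adjusted p limits are those the authors used with edgeR, which needs counts. The fit was tested on simulated data. Ratios were tested by exact permutation in scipy 1.17.1, and plots were drawn with matplotlib 3.10.9 in Python 3.11.15.

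Members and gene lists were chosen with earlier results of these data known. Named genes follow a rule: the 7 members, their partners and relatives, for each member the 3 genes with the highest correlation and the 1 with the highest correlation of deviations from group means, and for each list the 2 largest calls per direction on days 3 and 6. Some genes that this rule names are not reported here. *Ctsl* and *Vsir* were singled out among these after their values were seen, as were *Tlr6*, *Dok3*, *Lyzl4* and the hepatocyte markers. The alternatives were a pseudocount of 0.1, no filter on low values, all 18 libraries in one fit, median centring, quantile normalization, the replicate number as a block, both lysozyme genes summed and leaving out each library. The replicate numbers come from the labels, and the series text states 3 independent experiments. Deviations from the group means correlated between same-numbered WT and DKI libraries at 0.687 to 0.868 on day 0, 0.156 to 0.364 on day 3 and 0.336 to 0.412 on day 6, so the numbers pair the genotypes. Between day 0 and the later days they did not correlate throughout (lowest −0.217). Where the labels do not name animals, p-values measure the spread between these libraries.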

Additional observations from a re-analysis of the deposited data

Results flagged for a closer look

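The change with time differed between WT and DKI cells for 4 of the 7 genes, by a test of the interaction itself in limma, in which 1.2% of all genes to day 3 and 0.898% to day 6 were called higher. *Lyz1*, whose RPKM is uncertain, and *Lyz2* may share reads. *Folr2* entered the tests only through the DKI MDCs, where it is high, so it had to differ to be tested. The difference from day 0 to day 3 was 3.00 on the log2 scale for *Lyz2* and 5.24 for *Cbr2*. That from day 0 to day 6 was 2.17 for *Lyz1*, 2.07 for *Lyz2*, 3.50 for *Cbr2* and 4.64 for *Folr2*. All were higher in DKI cells in 3 of 3 same-numbered pairs on the later day. Without single libraries, *Cbr2* stayed called in 12 of 12 fits in both tests, and *Lyz2* from day 0 to day 3 in 2 of 12. In the test to day 6, *Lyz1* and *Lyz2* stayed called in 12 of 12 and *Folr2* in 5 of 12 (adjusted p up to 0.0709). With all 18 libraries in one fit *Lyz1*, *Lyz2* and *Folr2* lost this call (adjusted p = 0.0708, 0.0808 and 0.0607). Without the filter on low values *Lyz2* lost it (0.744), as it did in the test to day 3 (0.746). Its log2 values were unchanged in these 2 fits, with standard errors of 2.22 and 2.82. Groups of 3 libraries are too small for a test of single libraries standing apart.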

How the results depend on the processing

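The genotype differences of these genes kept their sign under every alternative on days 3 and 6, while the number of calls changed. In place of 4 members on day 3 and 5 on day 6, no filter on low values gave 1 and 2, and replicates 2 and 3 alone, chosen after seeing the data, gave 1 and 2. From day 0 to day 3, the interaction gave 1 member with a pseudocount of 0.1, 1 without the filter and 5 with the replicate block on each day (also chosen after seeing the data), in place of 2. From day 0 to day 6 it gave 1 with all 18 libraries in one fit, in place of 4. Leaving out one library gave 1 to 2 members on day 3, 1 to 5 on day 6, 3 to 5 for DKI cells from day 0 to day 3 (in place of 5), 1 to 3 for the interaction to day 3 and 3 to 5 for that to day 6. With fewer samples, fewer residual degrees of freedom remain, and no filter raises the number of genes tested. Otherwise the cause was not tested.

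The macrophage list, also counted under alternatives chosen after seeing the data, gave 4 and 1 called genes without the filter on days 3 and 6 in place of 10 and 7, 12 on day 6 with all 18 libraries, 2 on day 6 with replicates 2 and 3 alone, and 3 to 12 and 1 to 8 when one library was left out. With the replicate block, *Cd68* lost its call on day 3 (adjusted p = 0.0622), as it did with median centring (0.0531) and no filter (0.101), and it gained one in the interaction to day 6 (adjusted p = 0.0269). No other call of a member changed between the genotypes with the block. *Folr2* on day 3 was called with a pseudocount of 0.1 (6.31, adjusted p = 0.0366) and with all 18 libraries (adjusted p = 0.00504).

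Over all genes, day 3 gave 723 calls, 358 without the filter, 1359 with all 18 libraries and 197 to 715 without one library. Day 6 gave 742, and 187, 1573 and 90 to 984. The interactions gave 297 and 290, 1040 and 1401 with the block on each day, and 125 to 336 and 117 to 664 without one library. Higher against lower calls were 268 against 474 on day 6, 323 against 285 after median centring and 342 against 310 after quantile normalization. For DKI cells from day 0 to day 3 they were 1297 against 2097, 1743 against 1622 and 1499 against 1783, and for the interaction to day 6 93 against 197, 126 against 150 and 156 against 163. Of the single-gene values with all libraries kept, 396 stayed on their side of the threshold, 15 lost and 8 gained a call, and 8 uncalled values changed sign. With one library left out these were 427, 51, 5 and 39, and with replicates 2 and 3 alone 8 stayed and 6 lost a call. RPKM values carry no read totals, so values under 0.103 RPKM cannot be told from a few reads.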
